A study of Mus musculus with 6 samples.

Results

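AGO2 binding was examined in 9 mouse genes that encode RNA-binding proteins acting on 3’UTRs: the ELAVL genes *Elavl1*, *Elavl2*, *Elavl3* and *Elavl4*, the Pumilio gene *Pum2*, the CPEB genes *Cpeb2*, *Cpeb3* and *Cpeb4*, and the Musashi gene *Msi2*. They were chosen by name, out of 45220 genes with a known strand, and their clusters were all those overlapping the mm10 RefSeq gene body on the same strand. The data are AGO2 chimeric eCLIP of whole brain at postnatal day 0 (P0) from C57Bl/6J mice, with 1 WT and 2 *Mov10* Deletion IP libraries, each set against its own size-matched input. In eCLIP, RNA is crosslinked to AGO2 with UV light and recovered with it, and in the chimeric form a bound miRNA is ligated to its target so that some reads name both. *Mov10* Deletion mice carry a *Mov10* gene with LoxP sites around exons 6 and 7, removed by *Emx1*-Cre in excitatory neurons of neocortex and hippocampus. They also come from a cross with a *Mov10* heterozygous mutant (+/-). The paper reports a strong reduction of MOV10 protein in lysates of P0 brain. Whole brain also holds regions outside neocortex and hippocampus, and the loss of MOV10 per cell type is not given. MOV10 is an RNA helicase that works with AGO2, and the series asked whether its loss changes AGO2 binding. The 9 genes held 754 of 359172 AGO2 clusters of the WT library, and 1229 of 616014 and 1229 of 616005 clusters of *Mov10* Deletion replicates 1 and 2.

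The proteins encoded by these genes can compete or cooperate with miRNAs on the messages they bind. ELAVL proteins bind AU-rich and U-rich elements and mostly stabilise mRNAs, with *Elavl1* (HuR) made in nearly all cells and *Elavl2*, *Elavl3* and *Elavl4* (HuB, HuC and HuD) in neurons. Pumilio proteins bind UGUA-containing elements and recruit deadenylases. CPEB proteins bind cytoplasmic polyadenylation elements and set poly(A) tail length and local translation, and Musashi proteins bind UAG-containing motifs and keep neural progenitors from differentiating. miRNAs guide AGO2 by pairing of their nucleotides 2 to 8, the seed, mainly with 3’UTRs, and the mRNAs of such regulators can themselves be miRNA targets.

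A cluster was called enriched when its log2 IP over input and its −log10 p were both at least 3. Only ratios with their p-values were available, not the total depth, and read numbers per cluster were deduced from both. A pair of 1 IP and 1 input read then equalled a fold of 0.845 for WT and of 1.74 and 2.39 for *Mov10* Deletion replicates 1 and 2, and an enriched cluster over 1 input read needed 16, 9 and 8 IP reads. The bar is therefore reached with fewer reads in the *Mov10* Deletion libraries. They also share 1221 of their 1229 clusters in the 9 genes, so positions there are not independent and only the ratios were measured in each. With 1 WT library no test between genotypes was possible, and all differences below are differences between libraries. Of the targeted gene *Mov10*, 11, 9 and 9 clusters were listed, with a highest log2 of 4.0 in WT (−log10 p 3.87, the only enriched one), and of 2.8 (−log10 p 1.2) and 2.84 (1.1) in the *Mov10* Deletion libraries. The neuronal genes *Tubb3*, *Map2* and *Snap25*, the glial gene *Slc1a3* and the oligodendrocyte lineage gene *Olig2*, which mark the cell types of whole brain, had AGO2 clusters in every library. In such whole tissue, fewer cells expressing a gene and less RNA per cell cannot be told apart.

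The miRNAs below were assigned to the same gene in at least 2 libraries or were among the 5 with the most target clusters in the 9 genes. They are shown so that their seeds, in capitals, can be compared with the sites that follow. Sequences are from RefSeq (GRCm38.p6). miR-124-3p and miR-466i-5p are named without a sequence. miR-15a-5p and miR-16-5p share the seed AGCAGCA.
miR-9-5p: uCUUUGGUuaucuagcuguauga
miR-125b-5p: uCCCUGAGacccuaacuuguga
miR-26a-5p: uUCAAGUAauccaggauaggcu
let-7c-5p: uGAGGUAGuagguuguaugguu
miR-16-5p: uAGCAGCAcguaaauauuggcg
miR-15a-5p: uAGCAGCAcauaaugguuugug
miR-181a-5p: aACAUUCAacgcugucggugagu
miR-301a-3p: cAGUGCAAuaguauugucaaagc
miR-25-3p: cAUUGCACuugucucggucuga
miR-30c-5p: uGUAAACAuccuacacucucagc
miR-135a-5p: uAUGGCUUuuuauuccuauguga
miR-125b-2-3p: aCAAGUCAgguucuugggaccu

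Target clusters of chimeric reads that recurred between libraries, lay in a 3’UTR and were assigned to a miRNA with a sequence above were searched on the sense strand for a match of 7 nt to miRNA nucleotides 2 to 8, or else of 6 nt within it. The matches are shown with the match in capitals, in GRCm39 coordinates of the GENCODE transcript. They show which letters under the recurrent clusters pair with the named miRNA.
*Cpeb2*, miR-16-5p, chr5:43443593-43443618, plus strand: aacacagtcTGCTGCTatatagtggg
*Cpeb2*, miR-9-5p, chr5:43443670-43443695, plus strand: cagtactttACCAAAGgtagcaaaat
*Cpeb2*, miR-15a-5p and miR-16-5p, chr5:43443875-43443900, plus strand: tattagcttTGCTGCTatataggtgt
*Cpeb2*, miR-125b-5p, chr5:43443463-43443488, plus strand: aaccctacatCTCAGGcttactaatt
*Cpeb2*, miR-26a-5p, chr5:43446109-43446134, plus strand: tatggaaaacACTTGAtattttatcc
*Cpeb2*, miR-26a-5p, chr5:43446170-43446195, plus strand: atgccacaaaACTTGAatataacaca
*Cpeb4*, miR-301a-3p, chr11:31883590-31883615, plus strand: acatttgttaTGCACTacttttgtat
*Cpeb4*, miR-25-3p, chr11:31884847-31884872, plus strand: tccagttatGTGCAATacttatctca
*Elavl2*, miR-125b-2-3p, chr4:91140713-91140738, minus strand: caaatatttTGACTTGaatactttga
*Elavl4*, miR-181a-5p, chr4:110063274-110063299, minus strand: ttgatgcatTGAATGTtctttcatag
*Elavl4*, miR-9-5p, chr4:110062836-110062861, minus strand: aacattgttgCCAAAGaggtggtctc
As a measure of how common such letters are, the share of all windows of the cluster's length in the 3’UTRs of the 9 genes that hold the motif was 0.922% for TGCTGCT in windows of 63 nt and 1.51% in windows of 99 nt. It was 1.35% for ACCAAAG, 1.27% for GTGCAAT, 1.1% for TGAATGT and 0.299% for TGACTTG, and for the matches of 6 nt it was 2.00% and 2.55% for ACTTGA in windows of 71 and 96 nt, 1.33% for CTCAGG, 1.92% for CCAAAG and 3.42% for TGCACT. For 6 nt only the letters found were counted, though the search accepted any 6 nt within the match of 7 nt. These shares are therefore lower bounds for what the search accepted.

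Enriched clusters were few in the 9 genes and unevenly spread over them. In WT, 4 of 754 clusters were enriched (0.531%, exact 95% confidence interval 0.145 to 1.35), beside 2.11% of all clusters in that library. In *Mov10* Deletion replicate 1 it was 42 of 1229 (3.42%, 2.47 to 4.59), beside 5.18% of all, and in replicate 2 it was 33 of 1229 (2.69%, 1.86 to 3.75), beside 3.10%. The median log2 over all clusters of the 9 genes was 0.49, 0.95 and 0.67, beside 0.76, 1.12 and 1.25 over every cluster of the libraries. Exact Clopper-Pearson intervals of shares reflect counting error alone, and adjoining clusters can share reads: 14 and 11 pairs of enriched clusters in the *Mov10* Deletion replicates lay end to end. An enriched cluster was found in 2 of the 9 genes in WT, *Cpeb2* and *Cpeb3*, beside 18.8% of all genes with a cluster, 20.6% of protein-coding genes and 30.2% of those at least as long as the shortest of the 9. Both *Mov10* Deletion libraries had 7 of 9 genes, beside 40.9% and 32.1% of all genes with a cluster, 45.4% and 35.7% of protein-coding genes and 63.0% and 52.7% of the long ones. In both at once, 5 genes had enriched clusters, beside 24.1% of all genes and 27.0% of protein-coding genes. These were *Elavl4*, *Cpeb2*, *Cpeb3*, *Cpeb4* and *Msi2*. The share of the long genes in both at once was not computed. In each library alone their share was above that of protein-coding genes of any length.

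**Figure D1:**
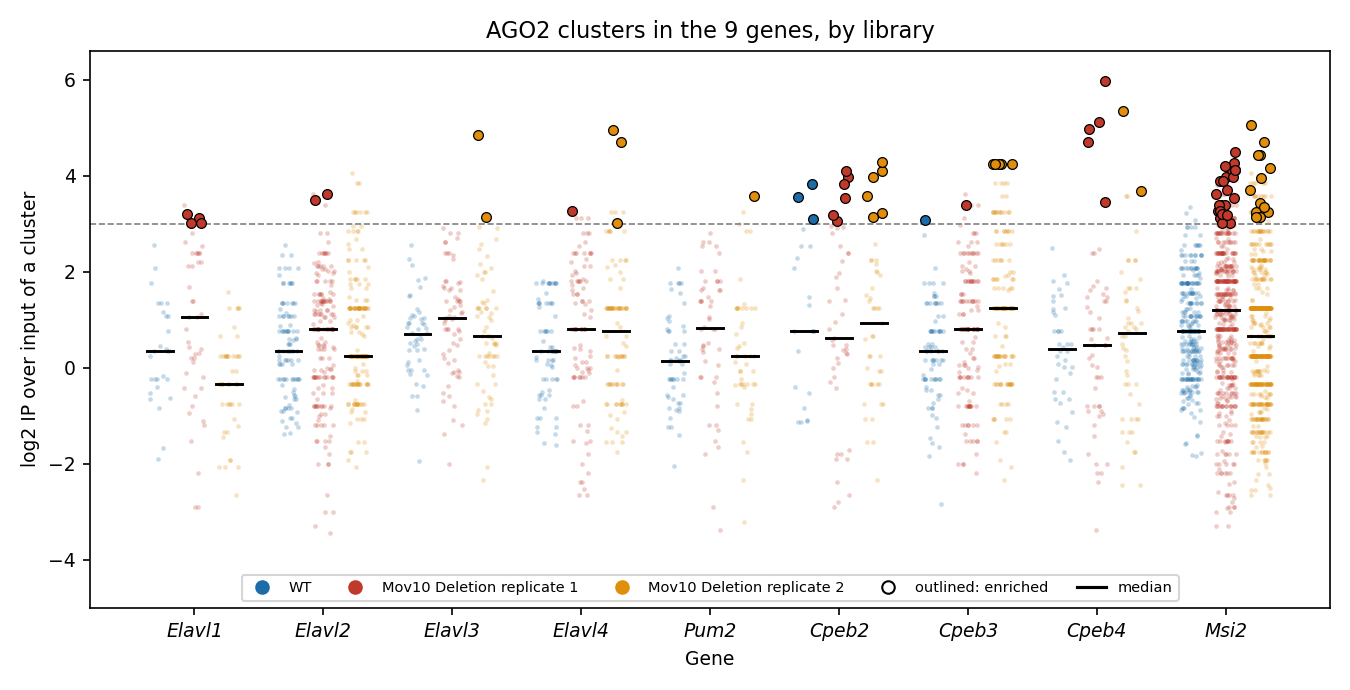
Every AGO2 cluster in the 9 genes as a point, with its log2 IP over input on the vertical axis and the gene on the horizontal axis, in WT (blue) and *Mov10* Deletion replicates 1 (red) and 2 (orange). Outlined points are enriched, short black lines are medians and the dashed line is a log2 of 3. In WT the outlined points lie in *Cpeb2* and *Cpeb3*, while *Msi2* holds the most in the *Mov10* Deletion libraries (23 and 14).

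All 4 enriched clusters of WT lay in 3’UTRs, 3 of them in *Cpeb2*, including 1 pair end to end. Of the 42 of *Mov10* Deletion replicate 1, 11 lay in 3’UTRs, 5 in coding sequence, 25 in introns and 1 in an exon of a non-coding transcript, and the numbers for replicate 2 were 9, 3, 20 and 1. The split by place over all genes is not given here. The last 5000 nt of the gene held 4 of 4 in WT (100%, 39.8 to 100). They held 12 of 42 (28.6%, 15.7 to 44.6) in *Mov10* Deletion replicate 1 and 11 of 33 (33.3%, 18.0 to 51.8) in replicate 2. In all protein-coding genes they held 42.0%, 26.8% and 26.6% of the enriched clusters. The clusters enriched in both *Mov10* Deletion libraries were exonic. Of the clusters enriched in replicate 1, 5 of 11 in 3’UTRs and 0 of 25 in introns were also enriched in replicate 2. Read from replicate 2, it was 5 of 9 in 3’UTRs and 0 of 20 in introns. The intronic clusters enriched in replicate 1 had a median log2 of 1.25 in replicate 2 (from -1.07 to 2.25), and those enriched in replicate 2 had a median of -0.52 in replicate 1 (from -2.20 to 2.80), with 14 of 20 at or below 0. Over all 9 genes, the *Mov10* Deletion libraries had 6 enriched clusters in common, which is 14.3% of those of replicate 1 and 18.2% of those of replicate 2. They lay in *Cpeb2* (4) and *Cpeb4* (2). The same shares over all clusters of the *Mov10* Deletion libraries, in total or by place, are not given here. These counts thus describe the 9 genes alone.

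*Elavl1* encodes HuR, which stabilises AU-rich mRNAs, and its 3’UTR median differed more between the *Mov10* Deletion libraries than that of any other of the 9 genes. The gene spans chr8:4284781-4325140 on the minus strand. The 3’UTR clusters had a median log2 of 0.08 in WT (6 clusters, -0.53 to 1.08), 2.81 in *Mov10* Deletion replicate 1 (12 clusters, 0.21 to 3.38) and -0.20 in replicate 2 (12 clusters, -1.07 to 1.25). The median of replicate 1 alone stood high, and the range of each library overlapped those of the others. The highest enriched cluster of replicate 1, chr8:4288939-4288983, reached a log2 of 3.21 (−log10 p 4.56) from 16 inferred IP reads over 3 input reads (95% interval of the log2 1.41 to 5.64). In replicate 2 the same cluster had a log2 of -0.75 from 1 IP read over 4 input reads (-6.37 to 2.59), and these intervals overlap. The end-to-end neighbours chr8:4288898-4288910 and chr8:4288911-4288938 had 14 reads over 3 each, and the remaining one, chr8:4286558-4286589, had 15 over 3 and a log2 of 3.12, beside 1.25 in replicate 2. So 4 clusters were enriched in replicate 1 and 0 in WT and in replicate 2. In WT the highest log2 at a −log10 p of at least 1.3 was 2.56, in an intron at chr8:4294913-4295008 (14 reads over 2), and replicate 2 had no cluster at that p. Chimeric reads gave 1 target cluster per library, each for another miRNA and at another place: miR-15b-5p in WT (3’UTR, score 3.0), miR-9-5p in *Mov10* Deletion replicate 1 (coding sequence, score 6.00) and let-7i-5p in replicate 2 (3’UTR, score 3.0).

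**Figure D2:**
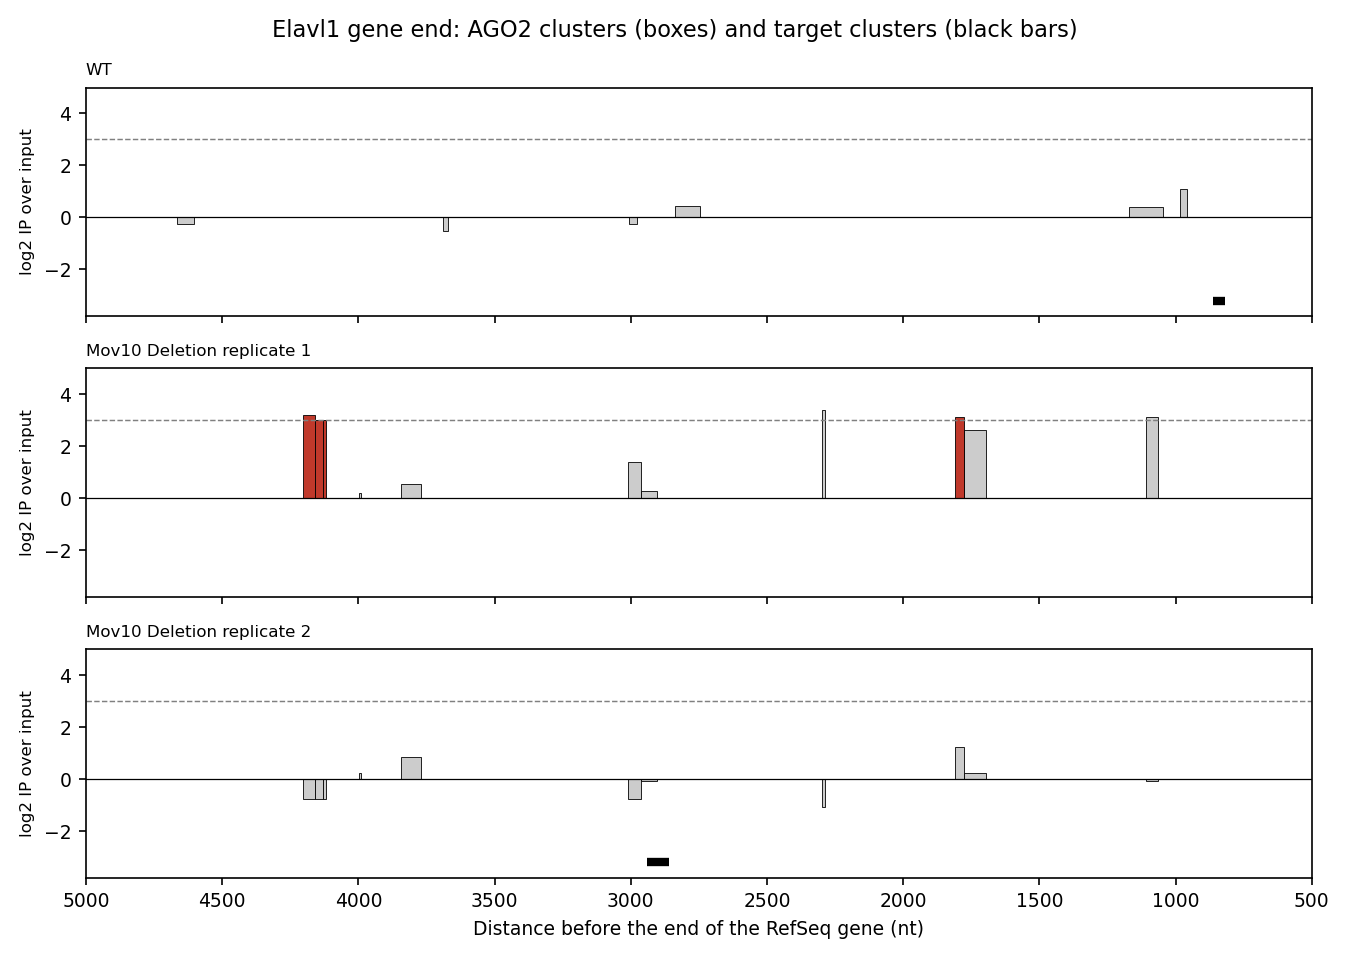
AGO2 clusters (boxes, height is the log2 IP over input) and target clusters (black bars) within the last 5000 nt of *Elavl1*, by distance before the end of the RefSeq gene in nt (horizontal axis), in the 3 libraries. Coloured boxes are enriched and grey ones are not. In *Mov10* Deletion replicate 1, 4 positions are coloured, where the same positions of replicate 2 run from -0.75 to 1.25.

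The neuronal ELAVL genes had 3’UTR medians from -0.22 to 1.28. *Elavl2* (HuB, chr4:91211533-91400108, minus strand) had 3’UTR medians of -0.21 in WT, against 0.33 for replicate 1 and -0.22 for replicate 2 of *Mov10* Deletion, and its introns had 0.34, 0.80 and 0.25. Its 3’UTR thus lay below its introns in each library. The GENCODE gene end lay at -39135 nt relative to the RefSeq end, so distances to the gene end are not used for it. The only enriched clusters adjoined each other in an intron in *Mov10* Deletion replicate 1, led by chr4:91353353-91353452 with a log2 of 3.61 (14 reads over 2, 1.48 to 6.79), where replicate 2 had 1.25 from 1 read over 1. In replicate 2 the highest was an intronic cluster at chr4:91281338-91281400 with a log2 of 4.06 (7 reads over 1), whose −log10 p of 2.93 missed the bar. In WT no cluster reached a −log10 p of 1.3. The recurrent target cluster of *Elavl2*, in WT and *Mov10* Deletion replicate 1, was assigned to miR-125b-2-3p (chr4:91252466-91252533, scores 4.96 and 3.13) and covers the match TGACTTG shown above. The AGO2 clusters over it had log2 values of -0.58 and -0.02, so the chimeric reads there came without an IP over input above 0 on the log2 scale. The highest scores in the *Mov10* Deletion libraries were both intronic, for miR-181a-5p (6.82) in replicate 1 and miR-130b-3p (3.0) in replicate 2.

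*Elavl3* (HuC, chr9:22015005-22052146, minus strand), which marks neurons, had the most target clusters among the 9 genes in WT, 13, with 12 and 6 in the *Mov10* Deletion replicates. Its 3’UTR medians were 0.94, 1.28 and 1.2, above its intron medians of 0.52, 0.80 and 0.52 in each library. No cluster was enriched in WT, where the highest log2 was 2.56 in the first part of the gene (intron, chr9:22051025-22051071, 21 reads over 3), nor in *Mov10* Deletion replicate 1, where it was 2.90 (intron, chr9:22051437-22051529, 30 reads over 7). Replicate 2 had 2 enriched clusters in that intron. The higher, chr9:22051021-22051108, had a log2 of 4.84 from 12 reads over 1 (2.08 to 10.26), and in replicate 1 it had 1.80 from 18 reads over 9. These intronic clusters had a higher log2 but a lower −log10 p than some in the 3’UTR. There chr9:22016821-22016923 had 2.13 in WT (−log10 p 31.9). The overlapping chr9:22016837-22016928 had 1.77 (31.5) and 1.42 (11.7) in *Mov10* Deletion replicates 1 and 2. A target cluster of let-7c-5p recurred in all 3 libraries, 84 nt from the gene end (chr9:22015089-22015197, scores 6.84, 10.9 and 4.96), where no AGO2 cluster was listed and no match to the seed was found. miR-124-3p, the main miRNA of neurons, recurred in both *Mov10* Deletion libraries in coding sequence (chr9:22036321-22036366, scores 10.9 and 7.95). miR-125b-5p recurred in WT and replicate 2 in the 3’UTR (chr9:22017519-22017584, scores 3.41 and 4.61), and miR-466i-5p in WT and replicate 1 in an intron (chr9:22046923-22047016, scores 5.97 and 6.00). The highest score was for miR-466f-3p in WT (7.53, 3’UTR), miR-665-3p in replicate 1 (11, 3’UTR) and miR-124-3p in replicate 2.

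*Elavl4* (HuD, chr4:110203737-110351939, minus strand), which stabilises mRNAs of axon and dendrite growth, had 3’UTR medians of 0.43, 1.08 and 0.37. The cluster chr4:110206052-110206145 in the 3’UTR had a log2 of 2.21 in *Mov10* Deletion replicate 1 (24 reads over 9, 1.06 to 3.50) and 3.02 in replicate 2 (17 reads over 5, 1.52 to 4.81), and the WT cluster inside it, chr4:110206065-110206121, had 1.26 (17 reads over 6, -0.15 to 2.89). The intervals overlap, and the bar of 3 was passed in replicate 2 alone. Its target cluster was assigned to miR-181a-5p in WT and replicate 1 (chr4:110206060-110206140, scores 3.79 and 4.92) and holds the match TGAATGT. Next to it, miR-125b-5p recurred at chr4:110206009-110206059 (4.71 and 7.22) without a match, and miR-9-5p at chr4:110205625-110205686 (6.24 and 5.33) with a match of 6 nt. So 3 target clusters of this 3’UTR recurred in WT and *Mov10* Deletion replicate 1, and none of them in replicate 2. A further one, for miR-124-3p, recurred in the same libraries in coding sequence (chr4:110213203-110213252, 4.79 and 3.74). In replicate 2 the single target cluster was for miR-455-3p (coding sequence, score 3.0). Elsewhere in the gene, the highest enriched cluster of replicate 2 was intronic, chr4:110221246-110221335, with a log2 of 4.95 from 13 reads over 1 (2.22 to 10.36), where replicate 1 had -2.20, and that of replicate 1, chr4:110223192-110223210, had 3.26 (11 reads over 2), where replicate 2 had 0.25. In WT the highest log2, 1.81, lay in the 3’UTR over the miR-9-5p cluster (chr4:110205609-110205729, 29 reads over 7).

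*Pum2* (Pumilio 2, chr12:8674092-8752583, plus strand), a repressor of mRNAs with Pumilio elements in neurons, was marked by miR-124-3p. A target cluster in the coding sequence, chr12:8748816-8748887, was assigned to miR-124-3p in all 3 libraries, with scores of 8.94 in WT, against 11.1 for replicate 1 and 3.82 for replicate 2 of *Mov10* Deletion, each the highest of the gene in its library. The AGO2 cluster there had a log2 of 1.76 in WT (chr12:8748841-8748861, 12 reads over 3, -0.13 to 4.22). At chr12:8748822-8748889 it had 1.67 in *Mov10* Deletion replicate 1 (11 reads over 6, 0.11 to 3.39) and 3.58 in replicate 2 (20 reads over 4, 2.00 to 5.58), the only enriched cluster of the gene in any library. The 3 intervals overlap. A second target cluster of miR-124-3p, chr12:8751272-8751417 in the 3’UTR, was also found in all 3 libraries (scores 7.74, 10.8 and 3.57), under AGO2 clusters with log2 values of 0.81, 1.61 and 0.71. Both *Pum2* positions thus recurred in chimeric reads with an IP over input mostly under the bar. miR-135a-5p was assigned to the 3’UTR position as well, in WT and replicate 1 (3.84 and 3.0). The 3’UTR medians of *Pum2* were 0.78, 1.07 and 0.10. The highest log2 at a −log10 p of at least 1.3 was 0.86 in WT (3’UTR, chr12:8749716-8749943, 56 reads over 26) and 2.61 in replicate 1, in the introns at both chr12:8679939-8679970 (14 reads over 4) and chr12:8745614-8745698 (7 over 2).

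*Cpeb2* (chr5:43225349-43289724, plus strand), which encodes a polyadenylation element binding protein that represses translation elongation, had the highest 3’UTR median of the 9 genes in WT and in *Mov10* Deletion replicate 2, while in replicate 1 that of *Elavl1* (2.81) was higher. Its 3’UTR medians were 2.54 in WT (10 clusters, 0.77 to 3.82), 2.65 in *Mov10* Deletion replicate 1 (16 clusters, 0.37 to 4.10) and 1.97 in replicate 2 (16 clusters, -0.07 to 4.29), and its intron medians were -0.53, 0.16 and -0.04. Enriched clusters were 3 of 22, 6 of 45 and 6 of 45, or 13.6%, 13.3% and 13.3%. They lay in the 3’UTR in every library, apart from 1 in coding sequence of replicate 1 (chr5:43234659-43234675, log2 3.97 there and 2.25 in replicate 2). They formed a proximal group, whose clusters ended 2930 to 3497 nt before the gene end, and a distal group, whose clusters ended 760 to 874 nt before it.

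In the distal group, the WT cluster chr5:43288727-43288921 showed a log2 of 3.82 (−log10 p 18.2) from 117 reads over 7 (2.73 to 5.17), the highest log2 of WT among the enriched clusters of the 9 genes. The *Mov10* Deletion clusters under it, chr5:43288733-43288850 and chr5:43288851-43288964, had 3.18 (47 reads over 9, 2.14 to 4.40) and 3.54 (40 over 6, 2.29 to 5.07) in replicate 1, and 3.58 (25 over 5, 2.17 to 5.32) and 3.98 (33 over 5, 2.61 to 5.69) in replicate 2. All intervals overlap, and differences between the libraries were not tested here. A target cluster of miR-26a-5p lay on these enriched clusters in all 3 libraries (chr5:43288750-43288916, scores 8.82 in WT, 5.76 and 3.8 in replicate 1, which lists a pair of them, and 6.09 in replicate 2). In each library a cluster covers the match ACTTGA shown above, at nucleotides 2830 to 2835 of the 3’UTR, and the one with 3.8 in replicate 1 covers another at nucleotides 2891 to 2896.

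In the proximal group, the *Mov10* Deletion clusters chr5:43286228-43286302 and chr5:43286303-43286376 had log2 values of 4.10 (69 reads over 7, 2.98 to 5.47) and 3.05 (57 over 12, 2.13 to 4.08) in replicate 1, and 4.10 (36 over 5, 2.75 to 5.81) and 4.29 (41 over 5, 2.95 to 5.99) in replicate 2. The WT cluster over both, chr5:43286203-43286387, had 2.54 from 138 reads over 20 (1.86 to 3.3, −log10 p 15.9), so it missed the bar on the ratio and not on the p-value, and its interval overlaps those of the *Mov10* Deletion clusters. The WT clusters adjoining it on the 3’ side also missed the bar, chr5:43286388-43286429 with 2.28 (75 over 13) and chr5:43286430-43286496 with 2.53 (82 over 12). Those after them passed it, chr5:43286497-43286572 with 3.55 (83 over 6, 2.36 to 5.03) and chr5:43286573-43286794 with 3.10 (132 over 13, 2.28 to 4.05). There the *Mov10* Deletion values were 2.95 and 3.13 at chr5:43286507-43286564 and 2.94 and 2.02 at chr5:43286565-43286817, with 106 and 39 IP reads at the latter. The remaining enriched clusters of this group were enriched in 1 *Mov10* Deletion library each, chr5:43286177-43286227 with 3.83 in replicate 1 and 1.39 in replicate 2, and chr5:43286377-43286506 with 1.89 and 3.22. Which of the neighbours passed a log2 of 3 thus differed by library.

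The proximal group held the target cluster with the highest score of the 9 genes. miR-9-5p, abundant in neural progenitors, was assigned to chr5:43286294-43286374 with a score of 23.0 in WT and to the same place with 8.43 in *Mov10* Deletion replicate 1, over the match ACCAAAG at nucleotides 390 to 396 of the 3’UTR. It was not listed there in replicate 2. miR-16-5p was assigned to chr5:43286232-43286374 in WT (9.63 and 5.90, a pair of clusters) and replicate 1 (6.08). The first match TGCTGCT lay under the WT cluster with 9.63 and under that of replicate 1, and no match was found under the one with 5.90. Both miR-15a-5p and miR-16-5p were assigned in all 3 libraries to chr5:43286449-43286564, over the second match TGCTGCT at nucleotides 595 to 601, with scores for miR-15a-5p of 5.67, 5.54 and 4.73 and for miR-16-5p of 4.95, 8.39 and 3.0. The AGO2 cluster with the highest log2 over this position had 3.55 in WT and 3.22 in replicate 2, both enriched, and 2.95 in replicate 1, just below the bar. Upstream of these, miR-125b-5p was assigned to chr5:43286091-43286163 in WT and replicate 1 (7.07 and 6.77), with a match of 6 nt and AGO2 clusters at 2.89 (70 reads over 8) and 2.91 (39 over 9). *Cpeb2* held 9 and 10 target clusters in WT and replicate 1, of which 3 and 4 lay on enriched clusters, and 2 in replicate 2, of which both did. Every WT target cluster on an enriched AGO2 cluster in the 9 genes was in *Cpeb2*.

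**Figure D3:**
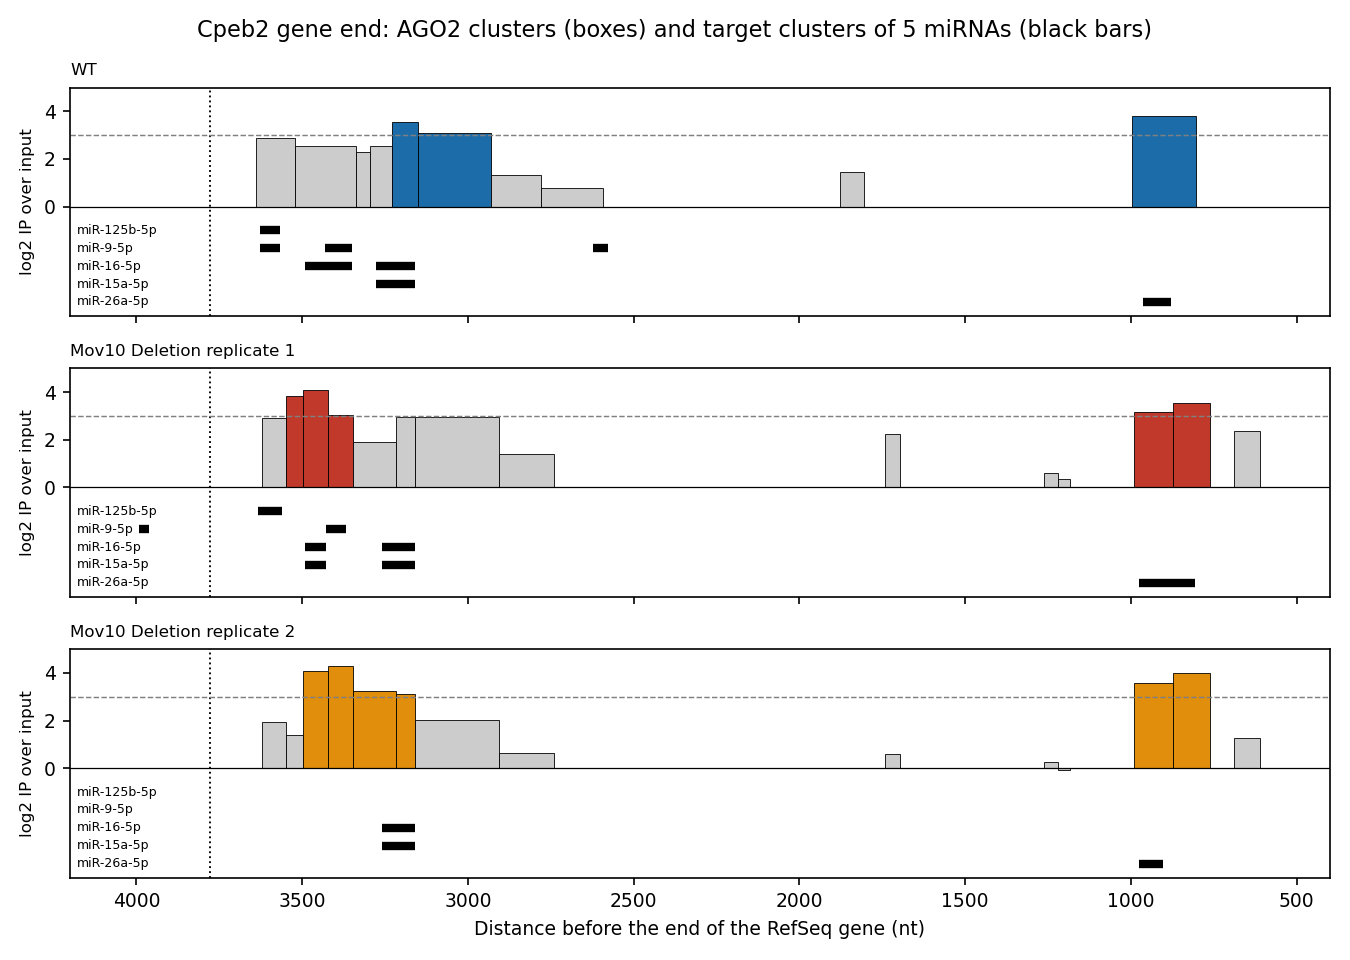
AGO2 clusters (boxes, height is the log2 IP over input on the vertical axis) and target clusters of 5 named miRNAs (black bars, 1 row each) at the end of *Cpeb2*, by distance before the end of the RefSeq gene in nt, in the 3 libraries. Coloured boxes are enriched, grey ones are not, and the dotted line marks the start of the 3’UTR. The proximal and the distal group are coloured in each library, with miR-15a-5p, miR-16-5p and miR-26a-5p below them in all 3.

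*Cpeb3* (chr19:37019341-37207620, minus strand), whose protein acts at synapses in memory, had 3’UTR medians of 1.49 in WT, against 2.38 for replicate 1 and 0.93 for replicate 2 of *Mov10* Deletion. Each library had 1 enriched cluster in the 3’UTR. That of WT, chr19:37022457-37022671, had a log2 of 3.08 (30 reads over 3, 1.39 to 5.43). That of replicate 1, chr19:37022629-37022722, which overlaps it, had 3.38 (18 over 3, 1.61 to 5.79), and there replicate 2 had 2.58 (5 over 2, -0.03 to 5.97). Replicate 2 was enriched elsewhere, at chr19:37023322-37023379, with 4.25 from 8 reads over 1 (1.36 to 9.73), where replicate 1 had -1.20. The other 4 enriched clusters of replicate 2 were intronic with the same 8 reads over 1, and all 5 had log2 values from -1.20 to -0.20 in replicate 1. So a position shared by WT and 1 *Mov10* Deletion library was seen, but no cluster was enriched in both *Mov10* Deletion libraries. The 1, 3 and 1 target clusters of *Cpeb3* did not recur at the same place for the same miRNA. miR-30c-5p was assigned to the 3’UTR in WT (chr19:37021355-37021425) and replicate 2 (chr19:37023806-37023877), with a score of 4.0 in each. The WT place held a target cluster of miR-26a-5p in replicate 1 (4.0), and the highest in replicate 1 was for miR-124-3p in an intron (5.0).

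*Cpeb4* (chr11:31870104-31935635, plus strand) encodes another neuronal member of the family. Its enriched clusters lay in coding sequence and the 3’UTR, in the *Mov10* Deletion libraries alone. The 3’UTR medians were 1.39 in WT, against 1.09 for replicate 1 and 0.79 for replicate 2 of *Mov10* Deletion, so WT had the highest. The coding sequence cluster chr11:31931304-31931374 had log2 values of 4.71 (30 reads over 2, 2.73 to 7.82) in replicate 1 and 5.34 (17 over 1, 2.67 to 10.73) in replicate 2, and the WT cluster inside it, chr11:31931308-31931344, had 2.49 (20 over 3, 0.74 to 4.89) at a −log10 p of 2.89. The 3’UTR cluster chr11:31933576-31933725 had 3.45 (44 over 7, 2.29 to 4.85) and 3.69 (27 over 5, 2.29 to 5.42), and the WT clusters inside it had 1.23 (25 over 9, 0.08 to 2.51) and 1.76 (28 over 7, 0.53 to 3.2). Both positions passed the bar in replicates 1 and 2 and had lower values in WT, but the intervals of WT and of each *Mov10* Deletion library overlap. The highest log2 among the enriched clusters of the 9 genes was also here, 5.97 at chr11:31930163-31930212 in replicate 1 (36 reads over 1, 3.40 to 11.31), against 3.58 in replicate 2 (5 over 1, 0.42 to 9.14), at a −log10 p of 1.99. No WT cluster was listed at that place.

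The 3’UTR cluster of *Cpeb4* overlapped a target cluster of miR-301a-3p in WT and *Mov10* Deletion replicate 2 (chr11:31933544-31933640, scores 3.0 and 3.62), with the match TGCACT. miR-25-3p recurred in the same libraries nearer the gene end (chr11:31934779-31934894, 4.0 and 3.0) over the match GTGCAAT, where the AGO2 log2 was 1.51 and 1.42. The highest score was for miR-26a-5p in WT (coding sequence, 4.47), miR-296-5p in replicate 1 (4.57, on the enriched cluster chr11:31931304-31931374) and miR-181a-5p in replicate 2 (3’UTR, 5.0).

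*Msi2* (Musashi 2, chr11:88339382-88718306, minus strand), a translational regulator of neural progenitors and the longest of the 9 genes at 378925 nt, had lower values in its 3’UTR than in its introns. Its 3’UTR medians were -0.66 in WT (16 clusters, -1.81 to 0.89), -0.20 in *Mov10* Deletion replicate 1 (15 clusters, -2.92 to 1.80) and -1.07 in replicate 2 (15 clusters, -2.21 to 2.42), and its intron medians were 0.76, 1.21 and 0.67. No 3’UTR cluster of *Msi2* was enriched in any library. It had 23 enriched clusters in replicate 1, of which 22 were intronic, and 14 in replicate 2, of which 12 were intronic, out of 555 in each, and 0 of 305 in WT. They rested on 9 to 21 inferred IP reads in replicate 1 and on 9 to 17 in replicate 2, over 1 to 4 input reads, and the minimum over 1 input read in WT was 16 IP reads. None was enriched in both libraries. The clusters enriched in replicate 1 had a median of 1.25 in replicate 2, and those enriched in replicate 2 had a median of -0.20 in replicate 1. The highest in replicate 1, chr11:88710252-88710316 in an intron, had 4.50 (13 reads over 1, 1.76 to 9.91), against 1.84 in replicate 2, and the highest in replicate 2, chr11:88394573-88394678 in coding sequence, had 5.06 (14 over 1, 2.35 to 10.46), against 0.54 in replicate 1. In WT the highest was 3.34, intronic, at chr11:88694507-88694626 (12 reads over 1), with a −log10 p of 2.32. The 3, 15 and 5 target clusters of *Msi2* were mostly intronic (2, 13 and 3), and none recurred at the same place for the same miRNA. The highest scores were for miR-124-3p in WT (coding sequence, 4.75), miR-124-3p and miR-466i-5p in replicate 1 (introns, 8.0 each) and let-7d-5p in replicate 2 (intron, 8.0).

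Across the genes, the 3’UTR median lay above the intron median in all 3 libraries in 3 genes (*Elavl3*, *Cpeb2* and *Cpeb4*) and below it in all 3 in 2 genes (*Elavl2* and *Msi2*), and the sign differed between libraries in the other 4. The difference was largest in *Cpeb2*, at 3.07 in WT, against 2.49 for replicate 1 and 2.01 for replicate 2 of *Mov10* Deletion, and lowest in *Msi2*, at -1.41, -1.42 and -1.74. *Cpeb4* had 1.44, 1.4 and 0.69, *Elavl3* had 0.41, 0.48 and 0.68, and *Elavl2* had -0.55, -0.47 and -0.48. Since 3’UTRs were not placed for all genes, the same was asked of the last 5000 nt against the remainder of each gene. Of 2407 protein-coding genes with 5 or more clusters in both parts, 38.6% had the higher median at the end in each library and 7.56% the lower. *Cpeb2* (3.01, 2.67 and 1.81), *Cpeb4* (1.39, 1.35 and 0.14) and *Elavl3* (0.35, 0.44 and 0.63) were among the former and *Msi2* (-1.41, -1.57 and -1.92) among the latter.

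**Figure D4:**
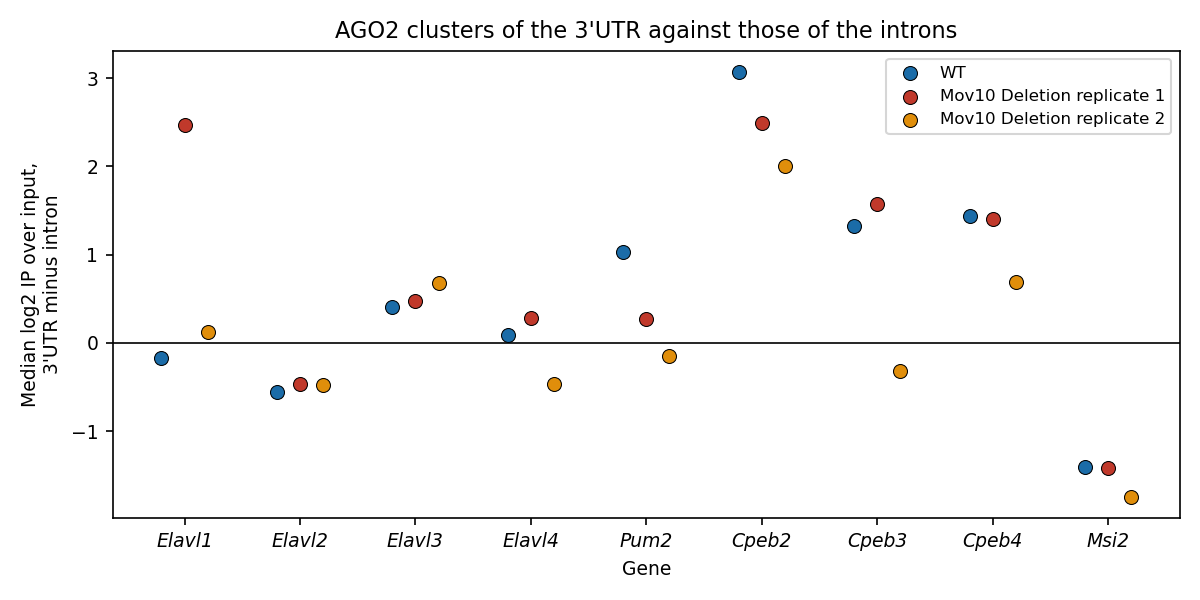
Median log2 IP over input of the 3’UTR clusters minus that of the intron clusters (vertical axis) for each of the 9 genes (horizontal axis), 1 point per library. The points of *Cpeb2* lie between 2.01 and 3.07, those of *Msi2* between -1.74 and -1.41, and in *Elavl1* the point of *Mov10* Deletion replicate 1 (2.47) stands apart from the others.

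Chimeric reads gave 42 target clusters in the 9 genes in WT, against 62 for replicate 1 and 23 for replicate 2 of *Mov10* Deletion, which is 0.233%, 0.228% and 0.186% of all target clusters in these libraries. All 9 genes had a target cluster in every library, beside 46.5%, 52.4% and 37.1% of protein-coding genes with an AGO2 cluster. Those shares are for genes of any length, and none was computed for genes as long as the 9. In 3’UTRs lay 23, 26 and 11 of them, in introns 10, 29 and 5 and in coding sequence 8, 7 and 5. Only 3 (7.14%), 5 (8.06%) and 4 (17.4%) overlapped an enriched AGO2 cluster, beside 15.0%, 11.7% and 12% of all target clusters. A target cluster can be listed for several miRNAs, which made 58, 73 and 25 assignments. miR-124-3p took 13, 17 and 5 of them (22.4%, 23.3% and 20%), beside 42.2%, 34.8% and 36.8% of the assignments in all genes. It was assigned to 7 of the 9 genes. Next came miR-9-5p with 7, 7 and 0, miR-466i-5p with 3, 9 and 1, miR-125b-5p with 5, 3 and 2 and miR-26a-5p with 3, 3 and 1. No miR-9-5p assignment was found in the 9 genes in *Mov10* Deletion replicate 2, which also had the fewest target clusters in all.

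Overlapping clusters of the same miRNA were joined into sites, of which there were 128. Found in at least 2 libraries were 20, and 6 were found in all 3: let-7c-5p in *Elavl3*, both miR-124-3p positions of *Pum2*, and miR-15a-5p, miR-16-5p and miR-26a-5p in *Cpeb2*, of which the first pair share a position. Of the 20, 16 lay in 3’UTRs (80.0%), 3 in coding sequence and 1 in an intron. Of the 108 sites of a single library, 49 lay in 3’UTRs (45.4%), 13 in coding sequence and 43 in introns. Among 3’UTR sites whose miRNA has a sequence here, 7 of 15 recurrent sites (46.7%) and 6 of 37 others (16.2%) held a match of 7 nt, and 4 and 13 more held one of 6 nt. Sites of miRNAs with the same seed at 1 position are counted separately, so these counts are not independent. A site joined from several clusters counted as matched when any of them held the match. Recurrent sites could thus offer more sequence to the search, and no adjustment for length was made.

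**Figure D5:**
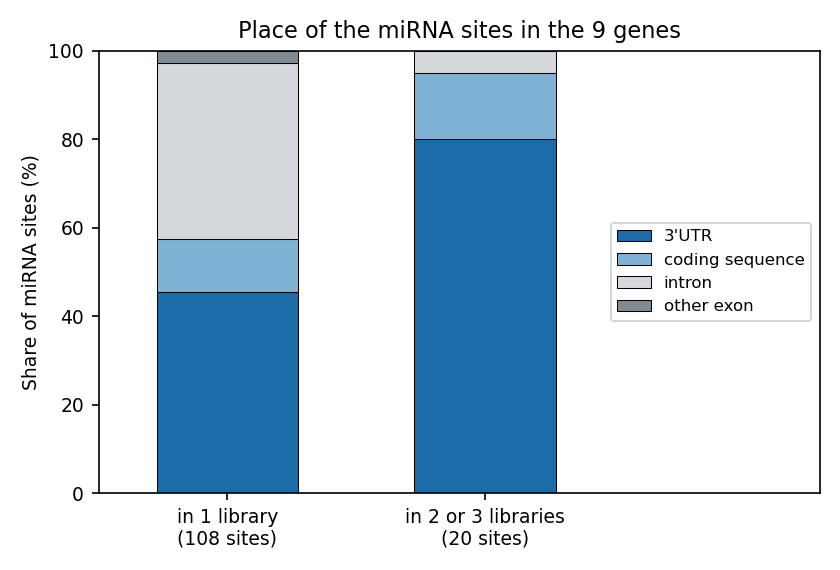
Share of the miRNA sites in the 9 genes (vertical axis, %) by place in the gene, for 108 sites found in 1 library and 20 found in 2 or 3. The 3’UTR part is 45.4% in the first bar and 80.0% in the other.

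Of 38 genes for other proteins that bind 3’UTRs, 18 had an enriched cluster in WT. In *Mov10* Deletion replicates 1 and 2, 24 and 22 had one. In both at once 20 had one, 4 of these without one in WT. Among protein-coding genes of any length that held AGO2 clusters, the shares were 20.6%, 45.4% and 35.7%, and 27.0% in both at once. The share enriched in both but not in WT was not computed, so the 4 genes cannot be set against it. The 38 genes were not matched for length. Enriched clusters made up 2.95%, 5.71% and 3.08% of all clusters of the 38 genes, beside 0.531%, 3.42% and 2.69% in the 9 genes. A few genes weigh on these pooled shares. *Rbfox1*, *Rbfox3* and *Rbms3* had 21, 20 and 29 of the 120 enriched clusters of the 38 genes in WT. In *Mov10* Deletion replicate 1 they had 78, 117 and 95 of 438. Among the 9 genes, *Msi2* gave 305 of the 754 WT clusters, with 0 enriched.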

How the data were processed

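Clusters of AGO2 chimeric eCLIP were analysed in 3 IP libraries (1 WT, 2 *Mov10* Deletion). The 3 inputs entered only through the authors' ratios. Per the labels and the methods, the authors took molecular identifiers from the reads and removed duplicates with UMI-tools 1.1.1, trimmed reads with cutadapt 3.2, mapped them to mm10 with STAR 2.7.7a and miRNA parts with Bowtie 1.2.3, and called peaks within samples with CLIPper. The authors deposited the IP over input of each AGO2 cluster as log2 and its p-value as −log10. The score deposited with each target cluster (lowest value 3.00) has no stated unit and only describes single clusters. Coordinates in the *Mov10* Deletion lists nearly coincide all the same.

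Genes were RefSeq bodies on GRCm38.p6 (mm10), with strands from RefSeq promoters or, by symbol, GENCODE M39 (45220 of 49997 genes). A cluster belonged to a gene when it overlapped it by at least 1 nt on the same strand. Exons, introns and 3’UTRs came from GENCODE M39 (GRCm39) and were placed by distance from flanking and own promoter sequences and the gene end, and no coordinates were converted. Gene ends agreed within 3 nt in 7 of 9 genes. The GENCODE end minus the RefSeq end was 2205 nt for *Elavl1* and -39135 nt for *Elavl2*, and for *Cpeb3* the distance between flanking sequences differed between builds. Matches to miRNAs were read from the 3’UTR of 1 transcript per gene by distance from the gene end. Cluster coordinates are mm10 and printed sites GRCm39, both counted from 1.

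Read numbers were taken to be those whole numbers, with up to 60 reads in the input, that return both the deposited ratio and −log10 p (within 0.01). This model fitted 97.3%, 95.5% and 95.3% of 600 clusters sampled per library. The sample left out clusters with the lowest −log10 p, and it also set the fold of 1 IP read over 1 input read. On pairs simulated from the same model, 98.6% to 99.0% of 2000 per library were recovered and 0 were wrong, which checks the calculation alone. In the 9 genes, a single pair was found for 467 of 754 clusters in WT. It was found for 838 of 1229 in *Mov10* Deletion replicate 1 and 654 of 1229 in replicate 2. All 4, 42 and 33 enriched clusters had one. Intervals are exact 95% binomial intervals of these reads and cover counting error only. Whether intervals overlap is not a test of a difference.

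The genes and lists were chosen with earlier results of these data known. Named are all 9 genes. For each library, the rule names the enriched AGO2 cluster with the highest log2 (with none enriched, the highest with −log10 p of at least 1.3), the clusters enriched in both *Mov10* Deletion libraries and the target cluster with the highest score. miRNAs named were those assigned to 1 gene in at least 2 libraries and the 5 most frequent. Other clusters named were chosen after their values were seen. No test between genotypes was made. Python 3.11.15, pandas 2.3.3 and SciPy 1.17.1 were used.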

Additional observations from a re-analysis of the deposited data

Results flagged for a closer look

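In the introns of *Pum2*, the median log2 IP over input was -0.24 in WT and 0.80 and 0.25 in *Mov10* Deletion replicates 1 and 2, so that WT lay on the other side of 0 from both *Mov10* Deletion libraries. The medians over all clusters of these libraries were 0.76, 1.12 and 1.25, so WT was also the lowest library there. The difference was not tested, since there is 1 WT library, and the 39 to 43 intronic clusters per library are no replicates.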

How the results depend on the processing

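Of 50 values under other settings, 33 stayed within the limit set for them and 17 moved. With a log2 of at least 2, 4 genes were enriched in WT, and enriched clusters rose to 12 in WT and 71 in *Mov10* Deletion replicate 1. With a −log10 p of at least 5, 1 gene was enriched in WT and 4 in replicate 1, and enriched clusters numbered 18 and 16 in the *Mov10* Deletion replicates. Asking for 16 or more IP reads everywhere, they numbered 20 and 11. The last 1000 nt of the gene held 25.0%, 4.76% and 6.06% of the enriched clusters. A score of at least 5 left 16, 34 and 7 target clusters. On any AGO2 cluster with a log2 above 0 and a −log10 p of at least 3 lay 9 target clusters in WT and 14 in replicate 1. Without *Mov10* Deletion replicate 1 or without replicate 2, 7 genes were enriched in place of the 5 found in both. No paired analysis was possible because the groups share a single replicate number and no result came from a test. The enriched clusters had a median of 15 and 12 inferred IP reads in the *Mov10* Deletion libraries and of 100 in WT, where they were 4. The total depth is not known, and its part in the counts was not tested.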
